A study of Mus musculus with 30 samples.

Results

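The genes Tead1, Sema3e, Nrp2, Fermt2, Etv1, Syt13 and Mroh2a were described across the sorted tumour fraction and the T cell fractions of mouse 4T1 tumours. They are 7 of the 55401 genes counted in every library. The members were selected on measured values, because they had lower counts in 3 libraries of the tumour fraction of C269-treated mice (libraries 6 to 8) than in the 5 libraries of control mice. The difference in the tumour fraction is therefore a description and carries no test.

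RNA was sequenced from 30 libraries in 6 groups of 5, named 4T1 C269, 4T1 CTRL, CD4 C269, CD4 CTRL, CD8 C269 and CD8 CTRL. C269 is an antibody against extracellular NAMPT, the secreted form of an enzyme of NAD synthesis, given to mice 2 times a week over 1 month at 2.5 mg/kg, and CTRL mice received a control IgG1. 4T1 is a mouse mammary carcinoma line. All groups came from tumours of wild-type genotype, the tumour cells carried GFP and were sorted, and CD4+ and CD8+ T cells were taken from tumours with magnetic beads. The labels do not say whether the replicates came from separate mice, so the p-values cover the spread among libraries, which may be technical.

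TEAD1 is a DNA-binding partner of YAP and TAZ, the coactivators that the Hippo kinases hold in check, and it drives genes of growth and of the cytoskeleton. ETV1 is a PEA3-type ETS factor whose family acts downstream of receptor and ERK signalling. SEMA3E is a secreted class 3 semaphorin that signals through plexin D1, NRP2 is a neuropilin that binds other class 3 semaphorins and VEGF-C, and FERMT2 (kindlin-2) binds integrin tails and promotes integrin activation. SYT13 is an atypical synaptotagmin, a family linked to membrane traffic. MROH2A belongs to the maestro heat-like repeat family, whose function is little known.

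On GRCm38, Tead1 (ENSMUSG00000055320) lies on chromosome 7 from 112679318 to 112906807 and Sema3e (ENSMUSG00000063531) on chromosome 5 from 14025276 to 14256689, both on the plus strand. Nrp2 (ENSMUSG00000025969) spans 62703285 to 62818695 and Mroh2a (ENSMUSG00000079429) 88226986 to 88262289 on the plus strand of chromosome 1. Fermt2 (ENSMUSG00000037712) lies on the minus strand of chromosome 14 from 45458795 to 45530118. Etv1 (ENSMUSG00000004151) lies on chromosome 12 from 38779380 to 38870484 and Syt13 (ENSMUSG00000027220) on chromosome 2 from 92915098 to 92956058, both on the plus strand. All 7 are annotated as protein-coding.

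Promoters, taken as 250 bases before to 50 bases after a start in RefSeq (GRCm38.p6), were on hand for 5 members and searched on both strands for a TEAD motif (CATTCC or GGAATG) and an ETS motif (CCGGAA or TTCCGG). Those 5 genes had 6 promoters. Of the 6, 1 held the TEAD motif (Etv1) and 0 held the ETS motif, against 14.7% and 14.9% of the 32851 promoters in the table. The other Etv1 promoter (chr12:38783461-38783760) held neither motif. The Etv1 promoter with the motif (chr12:38779832-38780131, plus strand, motif in capitals, 78 bases before the start) is shown because it is the single match, and the Sema3e promoter (chr5:14025026-14025325, plus strand, no match) for comparison.
Etv1: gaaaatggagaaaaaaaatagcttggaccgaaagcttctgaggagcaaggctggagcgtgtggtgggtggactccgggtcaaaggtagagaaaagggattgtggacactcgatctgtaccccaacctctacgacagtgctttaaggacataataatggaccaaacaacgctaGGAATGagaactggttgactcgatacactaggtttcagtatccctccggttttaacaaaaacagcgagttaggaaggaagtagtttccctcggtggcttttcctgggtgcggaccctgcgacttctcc
Sema3e: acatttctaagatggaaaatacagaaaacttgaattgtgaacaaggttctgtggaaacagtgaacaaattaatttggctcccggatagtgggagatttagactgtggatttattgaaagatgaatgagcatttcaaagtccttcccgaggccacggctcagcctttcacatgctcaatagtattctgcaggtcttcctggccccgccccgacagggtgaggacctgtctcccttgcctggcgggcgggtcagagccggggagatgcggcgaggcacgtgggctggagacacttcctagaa

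Before the members' values, 2 of the C269 tumour libraries need naming. Libraries 9 and 10 had Muc2, an intestinal goblet cell mucin, at 4408 and 5348 CPM (counts scaled to a common library total of counts assigned to genes), against at most 10.6 CPM in the other 28 libraries. They had Xist, the RNA of the inactive X chromosome, at 0.449 and 0.193 CPM, against at least 528 CPM in the other 28, and a sum of Y-linked genes of 208 and 210.4 CPM, against at most 1.39 CPM. Each member's fold change in the tumour fraction is given with and without them, as are the other genes named whose fold change turned or moved by over 1.5 times. Counts assigned to genes ran from 2347983 to 5176494 per 4T1 library, from 3431250 to 4495219 per CD4 library and from 2005579 to 3908523 per CD8 library.

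In the tumour fraction, libraries 6 to 8 lay below all 5 control libraries for all 7 members, as the choice of members fixed, and 2.69% of 13074 genes did so. With libraries 9 and 10 included, 6 of 7 members lay below every control library. Of all genes 1.71% did so, but the members were chosen among genes already low in libraries 6 to 8, and 224 of those 352 genes also lay below the controls with all 5, so nothing is read from the members' count. As a ratio, Nrp2 came nearest to that limit from inside, with 95.9 CPM in its highest C269 library against 108 CPM in its lowest control library, and Tead1 lay outside it, with 81.9 CPM against 57.9 CPM.

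Sema3e had 12.6, 10.9, 14.9, 4.04 and 0.580 CPM in 4T1 C269 libraries 6 to 10, against 43.2, 71.1, 41.2, 61.5 and 19.05 CPM in 4T1 CTRL libraries 1 to 5. The highest C269 library was close to the lowest control library, number 5, and the groups did not overlap. The log2 fold change, C269 over CTRL, was -2.41 ± 0.66 (SE) and -1.78 ± 0.39 without libraries 9 and 10.

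Nrp2 had 75.2, 57.2, 66.4, 95.9 and 79.0 CPM in 4T1 C269, against 108, 190, 116, 150.3 and 125 CPM in 4T1 CTRL. The groups did not overlap, and library 9 was the highest of the C269 libraries. Its log2 fold change was -0.85 ± 0.22, and -0.95 ± 0.23 without libraries 9 and 10.

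Fermt2 had 57.3, 45.9, 49.95, 58.6 and 43.1 CPM in 4T1 C269, against 84.0, 94.5, 77.7, 100.1 and 134 CPM in 4T1 CTRL. The C269 values lay close together and the control values were led by library 5. On the log2 scale the fold change was -0.92 ± 0.22, and -0.85 ± 0.25 without libraries 9 and 10.

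Tead1 had 29.3, 25.8, 41.9, 81.9 and 63.4 CPM in 4T1 C269, against 57.9, 78.8, 59.4, 84.8 and 73.4 CPM in 4T1 CTRL. Libraries 9 and 10 lay inside the control range, so the groups overlapped only through them. The log2 fold change was -0.54 ± 0.30 with all 10 libraries and -1.06 ± 0.22 without those 2.

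Etv1 had 14.9, 8.40, 23.3, 17.3 and 13.1 CPM in 4T1 C269, against 30.8, 62.6, 29.8, 48.4 and 30.8 CPM in 4T1 CTRL. All C269 libraries were lower, with library 8 the nearest to the controls. Its log2 fold change was -1.37 ± 0.31, and -1.31 ± 0.36 without libraries 9 and 10.

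Syt13 had 16.5, 17.4, 13.5, 18.6 and 5.80 CPM in 4T1 C269, against 42.6, 54.1, 41.7, 83.0 and 22.2 CPM in 4T1 CTRL. The C269 libraries were again all lower, and control library 5 came nearest to them. The log2 fold change was -1.71 ± 0.40, and -1.50 ± 0.38 without libraries 9 and 10.

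Mroh2a had 1.13, 0.410, 3.92, 0 and 0.580 CPM in 4T1 C269, against 6.63, 43.9, 6.50, 8.28 and 40.9 CPM in 4T1 CTRL. Control libraries 2 and 5 were several times above the other 3, and these are the 4T1 libraries with the fewest counts (2347983 and 2887662). The log2 fold change was -4.13 ± 0.99, and -3.49 ± 0.97 without libraries 9 and 10.

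In the authors' deposited table, 6 of the 7 members had an adjusted p under 0.05 in this contrast (Tead1 was at 0.438), where 2.2% of 18193 genes with an adjusted p were called lower in C269; the members were chosen on this contrast, so nothing is read from that count. In the edgeR quasi-likelihood fit used here 0% of 12875 genes were called, with 1536 at an unadjusted p under 0.05, while DESeq2 called 998. In data simulated with the spread of these libraries, edgeR recovered 0% of 2-fold, 16.4% of 4-fold and 62.1% of 8-fold changes. DESeq2 recovered 5.97%, 61.2% and 92.4%, with 51 false calls against 3 by edgeR. A gene without an edgeR call in this contrast is therefore not shown to be unchanged. Per kilobase of exon, the 4T1 CTRL levels ran from 18.9 CPM for Fermt2, 12.9 for Syt13 and 11.6 for Nrp2 through 5.22 for Tead1, 5.08 for Sema3e and 3.04 for Etv1 to 2.50 for Mroh2a.

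**Figure D1:**
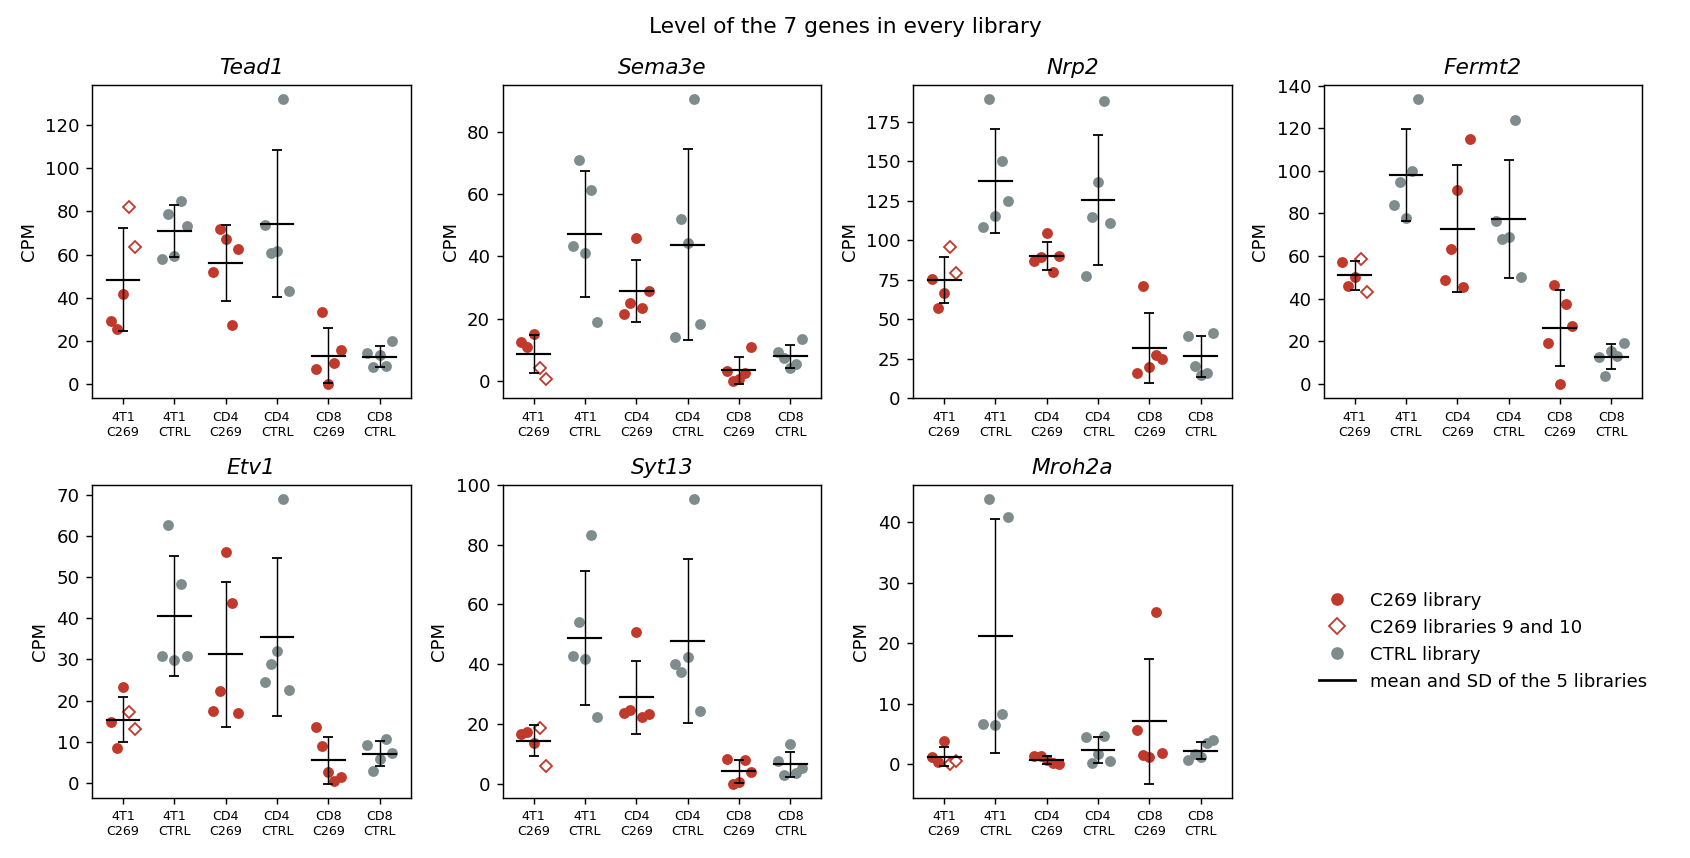
Level of each of the 7 genes in CPM (vertical axis) in every library of the 6 groups, with the mean and SD of 5 libraries; open diamonds are libraries 9 and 10. The 4T1 C269 libraries lie below the 4T1 CTRL libraries for 6 genes, Tead1 overlaps through the diamonds, and for 6 genes the CD4 CTRL libraries overlap the 4T1 CTRL libraries.

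The members were also present in T cell libraries. For 6 of the 7, the 4T1 CTRL and CD4 CTRL libraries overlapped, and Mroh2a alone was above CD4 CTRL in every 4T1 CTRL library. The share of all genes that overlapped between these groups was not counted, so nothing is read from the members' count. In CPM, Tead1 averaged 70.9 ± 11.9 in 4T1 CTRL, 74.3 ± 33.9 in CD4 CTRL and 12.9 ± 4.95 in CD8 CTRL (SD, n = 5 each). Nrp2 averaged 138 ± 33.1, 126 ± 41.1 and 26.4 ± 12.995 CPM in the same 3 groups, and Syt13 48.7 ± 22.4, 47.8 ± 27.4 and 6.45 ± 4.16 CPM. All 7 members were higher in every 4T1 CTRL library than in every CD8 CTRL library, as were 14.2% of 12579 genes; the control libraries of 4T1 were part of the choice of members, so this is a description. In bulk libraries, fewer cells of a type and less RNA per cell cannot be told apart.

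Between the T cell fractions of control mice, all 6 members tested were lower in CD8 than in CD4 cells (edgeR, Benjamini-Hochberg adjusted), where 13.2% of 12109 genes were called lower; Mroh2a did not pass the filter on low counts. Syt13, the widest difference, had a log2 fold change of -2.76 ± 0.40 (adjusted p = 0.000133). Fermt2 fell by 2.51 ± 0.32 on the log2 scale (adjusted p = 3.56e-05), Tead1 by 2.42 ± 0.30 (2.9e-05) and Sema3e by 2.35 ± 0.45 (0.00133). Etv1 fell by 2.21 ± 0.36 (0.000314) and Nrp2 by 2.14 ± 0.30 (7.67e-05). For each of the 6, every CD8 CTRL library lay below every CD4 CTRL library, as for 12.2% of 12131 genes.

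Markers of other cells differed between these fractions too. The summed level of 15 carcinoma and epithelial markers was 89.1 to 141 CPM in CD8 CTRL, against 283 to 431 CPM in CD4 CTRL, and 8 of the 10 tested were called lower and 1 higher. Krt18, a keratin of simple epithelia, fell by 2.97 ± 0.33 on the log2 scale (edgeR adjusted p = 1.02e-05). Of the fibroblast markers, 7 of 10 tested were called lower. The part of these cells in the members' difference was not tested, and population and isolation cannot be told apart.

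In CD4 cells, C269 against CTRL gave no call among the 6 members tested, and 0% of 12393 genes were called by edgeR (697 at an unadjusted p under 0.05; DESeq2 called 16). Nrp2 had 86.9, 89.2, 104, 79.8 and 90.3 CPM in CD4 C269, against 77.2, 115, 137, 188 and 111 CPM in CD4 CTRL. The groups overlapped, with control library 14 the highest and control library 11 the lowest of all 10. Its log2 fold change was -0.48 ± 0.19 (adjusted p = 0.865). Syt13 was at -0.71 ± 0.33, Sema3e at -0.58 ± 0.40, Tead1 at -0.39 ± 0.28, Etv1 at -0.17 ± 0.36 and Fermt2 at -0.09 ± 0.27 (adjusted p 0.882 to 0.982).

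Library 14 was the highest of the 10 CD4 libraries for all 7 members and had the lowest sum of T cell markers, 1118 CPM, against 2452 to 2664 CPM in the other CD4 CTRL libraries. Of the 10 it also had the highest sum of macrophage markers, 2055 CPM, and the lowest of fibroblast markers, 647 CPM. The part of these cells in the members' levels was not tested. Without library 14, Nrp2 was at -0.33 ± 0.17, Etv1 at 0.17 ± 0.32 and Fermt2 at 0.11 ± 0.25 on the log2 scale, with no call.

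In CD8 cells the members had low counts and gave no call, where 0.00914% of 10943 genes were called by edgeR. Fermt2 had 19.4, 46.4, 0, 37.5 and 27.2 CPM in CD8 C269, against 12.8, 3.68, 15.6, 13.1 and 18.96 CPM in CD8 CTRL. Library 28 had no Fermt2 count and the other 4 C269 libraries lay above the control range. Its log2 fold change was 1.02 ± 0.74 (edgeR adjusted p = 0.826). Sema3e was at -1.20 ± 0.87, Syt13 at -0.63 ± 0.88, Etv1 at -0.38 ± 0.77, Nrp2 at 0.23 ± 0.43 and Tead1 at 0.02 ± 0.69 (adjusted p 0.825 to 0.995).

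Libraries 27 and 29 of CD8 C269 stood apart, with carcinoma and epithelial markers at 709 and 410.0 CPM, against 68.8 to 151 CPM in the other 3, and fibroblast markers at 8098 CPM in library 29. Without these 2 libraries Fermt2 was at 0.26 ± 0.76, Nrp2 at -0.41 ± 0.38 and Tead1 at -0.74 ± 0.68. The difference of the C269 effect between CD8 and CD4 cells was called for 0% of 13264 genes, with 569 at an unadjusted p under 0.05 and 0 calls by DESeq2. Among members it was widest for Mroh2a, at 3.29 ± 1.37 (adjusted p = 0.986), and at 1.83 without library 29, where Mroh2a had 25.2 CPM against 1.22 to 5.70 CPM in the other CD8 C269 libraries.

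**Figure D2:**
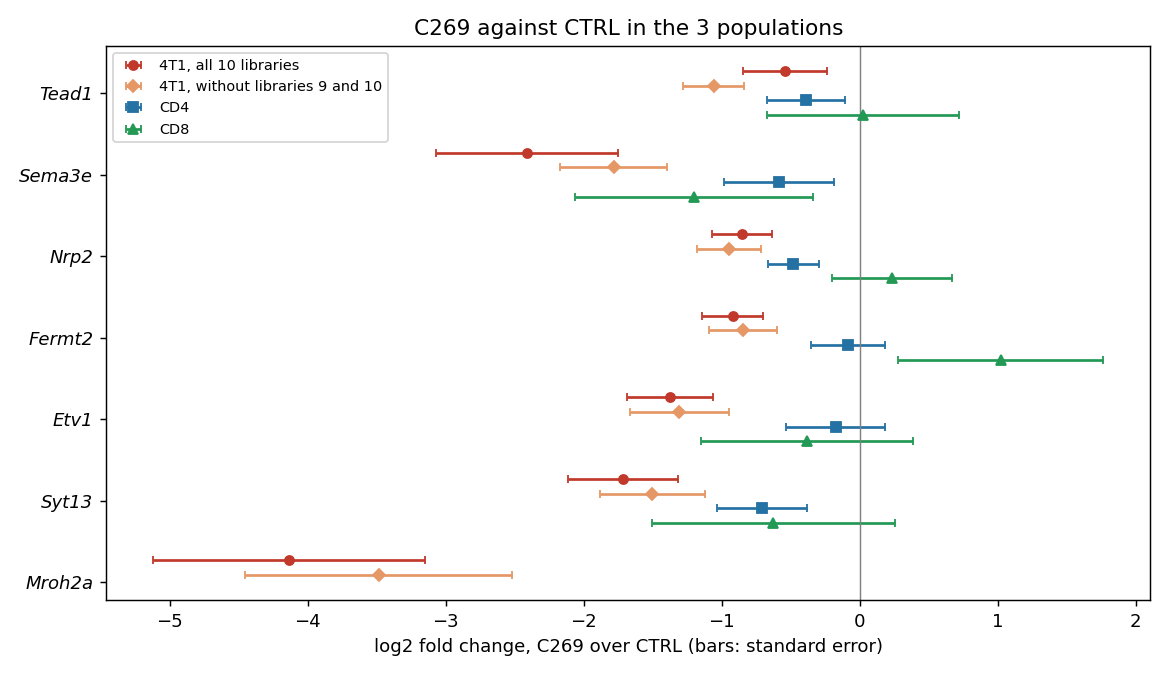
Log2 fold change of each gene, C269 over CTRL (horizontal axis), with its standard error, in the 4T1 fraction with and without libraries 9 and 10, in CD4 cells and in CD8 cells. All 7 genes lie below 0 in 4T1, where they were chosen, the 6 genes tested in CD4 lie nearer to 0, and the CD8 values have wide errors; Mroh2a was not tested in CD4 or CD8.

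Among the CD4 libraries the 6 members other than Mroh2a varied together, with a Pearson r of 0.29 to 0.84 and a median of 0.66 over 15 pairs of genes and 10 libraries in log2(CPM + 1). Without library 14 the r ran from -0.23 to 0.69, with a median of 0.44. Among the 10 CD8 libraries it ran from -0.46 to 0.87, with a median of 0.17, and without libraries 27 and 29 from -0.04 to 0.91, with a median of 0.42. These points share the libraries, their depth and their mix of cells, and the values are a description.

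Carcinoma and epithelial markers did not fall with the members between CTRL and C269 in the tumour fraction. Their summed level was 699, 450 and 1904 CPM in libraries 6 to 8 and 7832 and 7639 CPM in libraries 9 and 10, against 304 to 691 CPM in 4T1 CTRL. Library 2 was the highest control at 691 CPM, and the others had 304 to 361 CPM. It was also the highest control for Sema3e, Nrp2, Etv1 and Mroh2a, but not for Tead1, Fermt2 and Syt13. The marker sum in 4T1 CTRL overlapped CD4 CTRL (283 to 431 CPM) and lay above CD8 CTRL (89.1 to 141 CPM). These markers thus set the control tumour fraction apart from the CD8 but not from the CD4 control libraries. The name of the fraction follows the sample labels. Of 12 markers tested, 12 had higher values in C269. The median log2 fold change over the list was 3.51 (1.84 without libraries 9 and 10), against 0.02 over all genes tested. The edgeR fit called 0 (11 at an unadjusted p under 0.05) and DESeq2 called 10 of 15. Without libraries 9 and 10, edgeR called 0 (8 at an unadjusted p under 0.05) and DESeq2 called 2 of 15. Fibroblast markers went the other way: 11 of 11 were lower, with a median of -1.32 (-0.64 without libraries 9 and 10) and 0 calls by edgeR (1 at an unadjusted p under 0.05; 0 by DESeq2). Their sum ran from 1178 to 15439 CPM in 4T1 C269, against 3451 to 56902 CPM in 4T1 CTRL, where library 5 was the highest. Among the controls library 5 was the highest for Fermt2 and the lowest for Sema3e and Syt13. Library 4, the lowest control in fibroblast markers, was the highest for Tead1 and Syt13. The highest controls in macrophage markers were libraries 4 and 2, at 4100 and 1923 CPM. Macrophage markers were lower for 6 of 7, with a median of -1.75 (-1.25 without libraries 9 and 10), 0 edgeR calls, 4 at an unadjusted p under 0.05 and 3 called lower by DESeq2 (0 without libraries 9 and 10), and their sum ran from 141 to 739 CPM in 4T1 C269, against 583 to 4100 CPM in 4T1 CTRL. Neutrophil markers were lower for 6 of 7, with a median of -0.86, 0 edgeR calls, 2 at an unadjusted p under 0.05 and 1 higher by DESeq2. Without libraries 9 and 10, 4 of 7 were lower, with a median of -0.11, 1 at an unadjusted p under 0.05 and 0 calls by either tool. The neutrophil sum ran from 369 to 12639 CPM in 4T1 C269, against 3851 to 13635 CPM in 4T1 CTRL. The erythroid sum ran from 81.9 to 38128 CPM in 4T1 C269, against 182 to 26842 CPM in 4T1 CTRL. T cell markers were higher in C269 for 10 of 10, with a median of 0.93 (1.35 without libraries 9 and 10). Both tools called 0, and 1 had an unadjusted p under 0.05 in edgeR (0 without libraries 9 and 10). The T cell sum was 249, 281 and 351 CPM in libraries 6 to 8, above the 14.5 to 220 CPM of 4T1 CTRL. Libraries 9 and 10 had 121 CPM each. The part of these cell types in the members' difference was not tested.

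**Figure D3:**
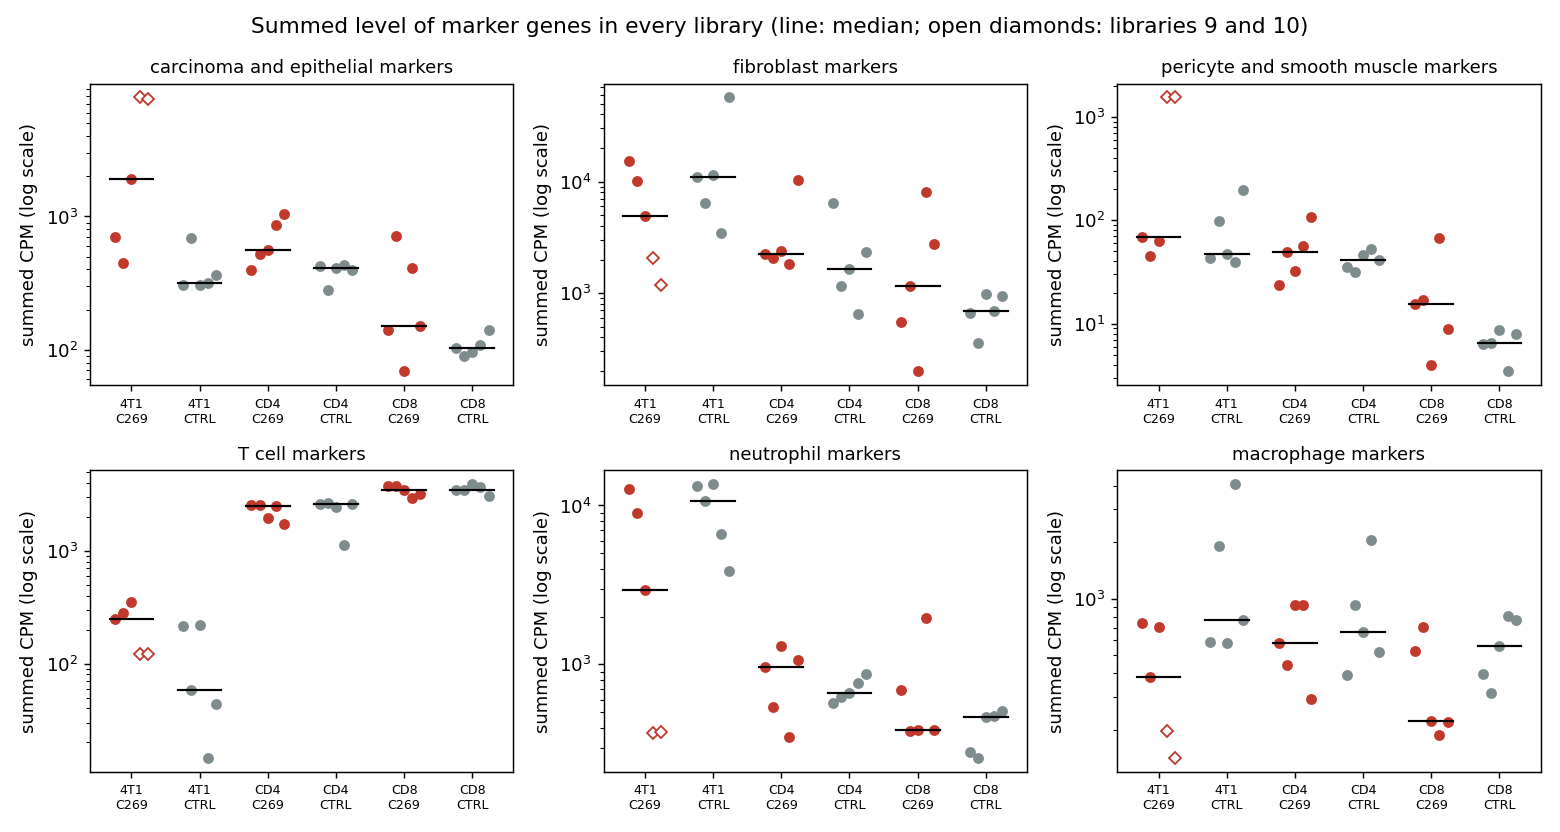
Summed CPM of 6 marker lists (vertical axis, log scale) in every library of the 6 groups, with the median as a line and libraries 9 and 10 as open diamonds. The carcinoma and epithelial sum is 7832 and 7639 CPM in libraries 9 and 10, and in CD4 CTRL (283 to 431 CPM) it overlaps that of 4T1 CTRL (304 to 691 CPM).

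The gene lists around TEAD1 were tested gene by gene in the tumour fraction. For this and the lists that follow, the edgeR background was 48.5% of 12875 genes lower, with 1536 at an unadjusted p under 0.05. Without libraries 9 and 10 it was 49.9% of 13750 genes lower, with 751. Over all genes DESeq2 called 443 lower and 555 higher (73 and 26 without libraries 9 and 10). No list was tested as a set. Of 20 YAP-TEAD target genes tested, 17 had lower and 3 higher values in C269, with a median log2 fold change of -0.73 (-0.68 without libraries 9 and 10). None passed in edgeR, 7 had an unadjusted p under 0.05 and DESeq2 called 1 lower. Without libraries 9 and 10, 19 of 21 tested were lower, 4 had an unadjusted p under 0.05 and DESeq2 called 0. The list summed to 568 to 1382 CPM in 4T1 C269 and 1531 to 3614 CPM in 4T1 CTRL. Library 5 was the highest control, and the others reached at most 2086 CPM. Tgfb2, a TGF-beta ligand, averaged 11.1 ± 3.00 CPM in 4T1 C269 and 40.9 ± 34.1 CPM in 4T1 CTRL (log2 fold change -1.86 ± 0.53, edgeR adjusted p = 0.355). Amotl2, a YAP-binding angiomotin, averaged 19.3 ± 11.6 CPM in 4T1 C269 and 68.4 ± 65.6 CPM in 4T1 CTRL (-1.83 ± 0.65, adjusted p = 0.355).

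Of 20 Hippo-TEAD pathway genes, 10 had higher and 10 lower values (5 and 15 without libraries 9 and 10), with 0 edgeR calls, 4 at an unadjusted p under 0.05 and 1 lower by DESeq2. Without libraries 9 and 10, 2 had an unadjusted p under 0.05 and DESeq2 called 0. Amotl2 and Lats2 belong to both this list and the YAP-TEAD targets, so they count in both wherever tested. Amotl1, another angiomotin, averaged 74.5 ± 46.8 CPM in 4T1 C269 and 218 ± 71.4 CPM in 4T1 CTRL (-1.53 ± 0.42, edgeR adjusted p = 0.355), and Wwtr1, which encodes TAZ, was at -0.94 ± 0.32. The paralogues were not called: Tead2 was at -0.35 ± 0.56, Tead3 at 0.10 ± 0.78 and Tead4 at 0.01 ± 0.92, and without libraries 9 and 10 they were at 0.22 ± 0.46, -1.02 ± 0.88 and -0.09 ± 1.2.

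Around Etv1, 16 of 17 PEA3 and ERK-feedback genes had lower values in 4T1 C269, with a median log2 fold change of -0.57, 0 edgeR calls, 3 at an unadjusted p under 0.05 and 0 by DESeq2. Without libraries 9 and 10, 14 of 17 were lower, with a median of -0.49 and 1 at an unadjusted p under 0.05. The summed level of the list was 2213, 1934 and 2622 CPM in libraries 6 to 8 and 962 and 900.0 CPM in libraries 9 and 10. The 4T1 CTRL libraries had 2422, 3170, 2387, 3059 and 4524 CPM, so library 8 lay inside the control range. Dusp6, an ERK phosphatase, was at -0.75 ± 0.28 and Il17rd, an inhibitor of FGF signalling, at -2.08 ± 0.80 (edgeR adjusted p = 0.366 for both). Etv4 was at -0.88 ± 0.54 and Etv5 at -0.52 ± 0.58 (-0.31 ± 0.43 and -0.98 ± 0.67 without libraries 9 and 10).

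Around Sema3e and Nrp2, 7 of 12 semaphorin, neuropilin and plexin genes had lower and 5 higher values (10 and 3 of 13 without libraries 9 and 10), with 0 edgeR calls, 2 at an unadjusted p under 0.05 and 1 higher by DESeq2. Without libraries 9 and 10, 0 had an unadjusted p under 0.05 and DESeq2 called 0. Library 5 led the list's sum in 4T1 CTRL, at 727 CPM, with the other controls at 262 to 428 CPM. Nrp1, the other neuropilin, averaged 63.1 ± 18.5 CPM in 4T1 C269 and 109 ± 36.4 CPM in 4T1 CTRL (log2 fold change -0.75 ± 0.30, edgeR adjusted p = 0.372). Sema3f, a ligand of NRP2, was at -0.98 ± 0.37. The other class 3 semaphorins tested were Sema3a at -0.64 ± 1.00, Sema3b at 0.00 ± 0.49 and Sema3c at -0.35 ± 1.10; without libraries 9 and 10 they were at -1.37 ± 1.23, -0.79 ± 0.47 and -1.68 ± 1.26. Of 7 VEGF ligands and receptors, 6 had lower values, and Vegfc, which NRP2 binds, was at -1.41 ± 0.61 (edgeR adjusted p = 0.398). The VEGF list had 0 edgeR calls, 1 gene at an unadjusted p under 0.05 and 0 calls by DESeq2. Without libraries 9 and 10, 6 of 7 were again lower and 0 had an unadjusted p under 0.05.

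Around Fermt2, 18 of 25 integrin-adhesion genes had lower values, with a median of -0.22, 0 edgeR calls, 3 at an unadjusted p under 0.05 and 1 higher by DESeq2. The list's share with such a p was close to that of all genes tested (1536 of 12875), of which 48.5% were lower. Without libraries 9 and 10, 18 of 25 were lower, 1 had an unadjusted p under 0.05 and DESeq2 called 0. Itga9 was at -1.75 ± 0.56 and Itgb5 at -1.16 ± 0.47 (edgeR adjusted p = 0.355 and 0.372). Fermt3, the kindlin of blood cells, was at -0.42 ± 0.55, and at 0.21 ± 0.30 without libraries 9 and 10. Fermt1, the kindlin of epithelia, averaged 1.01 ± 0.699 CPM in libraries 6 to 8 (n = 3), reached 322 CPM in libraries 9 and 10 and averaged 0.416 ± 0.929 CPM in 4T1 CTRL.

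Around Syt13, 3 of 4 synaptotagmins tested had lower values and 1 higher, with 0 edgeR calls and 1 at an unadjusted p under 0.05 (0 without libraries 9 and 10). DESeq2, with a looser filter, had 11 of 15 higher and 4 lower and called 2 higher. Without libraries 9 and 10 it had 5 of 12 higher and called 0. The higher one in edgeR was Syt7, a calcium sensor of exocytosis, which averaged 24.6 ± 23.4 CPM in 4T1 C269 and 3.83 ± 2.77 CPM in 4T1 CTRL (log2 fold change 2.69 ± 0.81, edgeR adjusted p = 0.355). Without libraries 9 and 10 it was at 1.05 ± 0.76. Of the Mroh2a family only Mroh1 passed the filter on low counts, at -0.71 ± 0.36 (edgeR adjusted p = 0.448).

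Between CD8 and CD4 cells of control mice, genes of these lists were called along with the members; over all 12109 genes tested 13.2% fell and 10.1% rose. Of 20 YAP-TEAD targets tested, 13 fell and 0 rose in CD8 cells, Axl, a receptor tyrosine kinase, by 2.07 ± 0.23 on the log2 scale and Ccn1, a matricellular protein, by 2.30 ± 0.28 (edgeR adjusted p = 1.33e-05 and 2.74e-05). Of 17 Hippo-TEAD genes, 7 fell and 1 rose, and Yap1 fell by 2.35 ± 0.28 (adjusted p = 2.36e-05). Of 14 PEA3 and ERK-feedback genes, 10 fell and 1 rose, and Etv4 fell by 2.06 ± 0.42 (adjusted p = 0.00202). Of 10 semaphorin, neuropilin and plexin genes 5 fell and 0 rose, and Nrp1 fell by 1.66 ± 0.25 (adjusted p = 0.00018). Of 23 integrin-adhesion genes 10 fell and 2 rose; Itga3 fell by 2.70 ± 0.28 (adjusted p = 5.16e-06), and Fermt3 rose by 0.42 ± 0.13 (adjusted p = 0.0269).

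Over all 30 libraries, the genes most like each member in log2(CPM + 1) were ranked among 13463 genes. They were Cavin2, Tjp1 and Sdc2 for Tead1 (Pearson r 0.93, 0.92 and 0.92), Apcdd1, Angpt1 and Vcam1 for Sema3e (0.91, 0.91 and 0.90) and Tsc22d1 and Clu for Nrp2 (0.93 for both). They were Cpe, Wfdc2 and Col16a1 for Fermt2 (0.94, 0.93 and 0.93), Siae, Ntn1 and Ehd4 for Etv1 (0.95, 0.91 and 0.89) and Hoxa5, Cdc42ep1 and Col18a1 for Syt13 (0.95, 0.92 and 0.92). These values rest in part on the low CD8 libraries and are a description.

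Mroh2a had a pattern of its own. Its nearest genes were Vmn2r56, Onecut2 and Vmn1r179 (r 0.88, 0.88 and 0.87), 2 of them vomeronasal receptor genes. All 2001 genes with symbols of the vomeronasal (Vmn) and olfactory (Olfr) receptor families were then summed, a choice made after seeing those values. The sum was 61.2, 49.6, 107, 13.5 and 17 CPM in 4T1 C269, against 151, 739, 117, 157 and 596 CPM in 4T1 CTRL. The 2 control libraries highest for Mroh2a, 2 and 5, were the highest of all 30, and library 29, highest for Mroh2a outside 4T1 at 25.2 CPM, came next at 227 CPM. Outside these 3 libraries Mroh2a reached 8.28 CPM at most. Whether receptor-family reads and Mroh2a reads share a source was not tested.

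**Figure D4:**
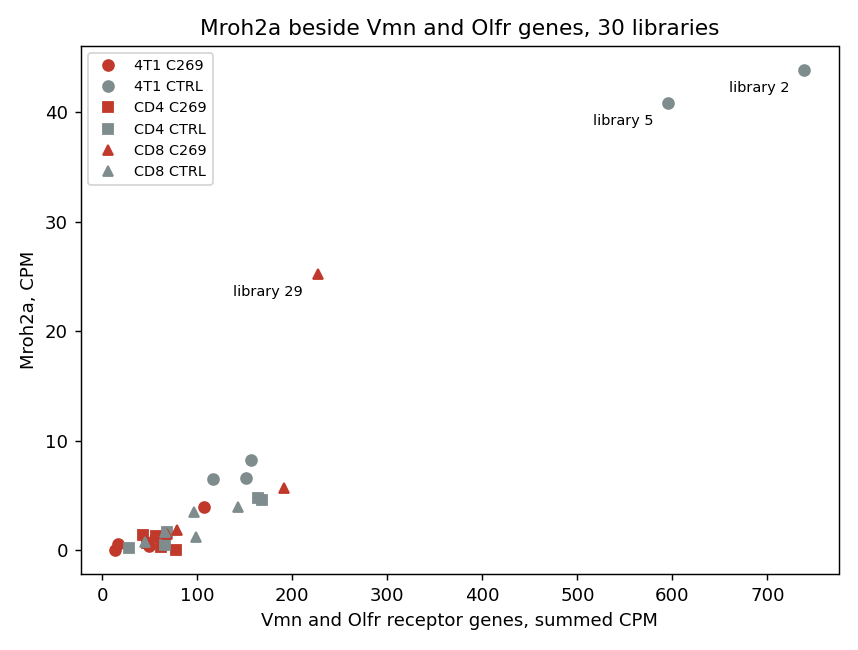
Mroh2a in CPM (vertical axis) against the summed CPM of Vmn and Olfr receptor genes (horizontal axis) in each of the 30 libraries, by group. Libraries 2 and 5 of 4T1 CTRL lie at the upper right (43.9 and 40.9 CPM of Mroh2a) and library 29 of CD8 C269 at 25.2 CPM; the other 27 libraries lie at or under 8.28 CPM.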

How the data were processed

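The members and the gene lists were chosen with earlier results of these data known. Per the submitters' processing notes, reads were quality-checked with FastQC, counted with featureCounts and compared with DESeq2 on mm9 (tool versions and aligner: not given in the sources used here). The deposited tables hold whole-number counts per gene, a log2 fold change that the authors give as CTRL over C269, and adjusted p-values; signs were turned where the authors' values are cited. Of 55401 gene identifiers, 54928 had the start given in GENCODE M21 (99.6%), so coordinates are GRCm38.

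Library columns carry numbers, and each group column equals the sum of exactly 1 of 252 sets of 5 columns, which gave each library its group. The 7 ribosomal RNA features were left out (0.579% to 7.95% of counts). No pair of replicates agreed within counting error; libraries 1 and 3 were closest (chi-square per gene 5.07).

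Counts were tested with edgeR 4.0.16 (filterByExpr, TMM, quasi-likelihood test, Benjamini-Hochberg, threshold 0.05) in R 4.3.3, within each population, between CD8 and CD4 in CTRL, and as an interaction. SE is the size of the log2 fold change divided by the root of the F statistic. Alternatives were DESeq2 1.42.0, RLE size factors, no filter and leaving out libraries. The scripts were tested on simulated data. Genes were named by a fixed rule: the members, their paralogues, and list members that pass (up to 4 per list) or, failing that, 2 genes per list by smallest p in 4T1; of these the text names some. One result under this rule is not reported here.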

Additional observations from a re-analysis of the deposited data

Results flagged for a closer look

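In 7 of 42 sets of 5 libraries (1 member in 1 group), the gap between 1 library and the next, divided by the range of the set, was above Dixon's limit for 5 values. That limit is set so that chance flags about 1 in 20, but these sets share libraries and are not independent. Library 14 of CD4 CTRL stood out for Etv1 (69.0 CPM) and Syt13 (95.3 CPM), and library 18 of CD4 C269 for Syt13 (50.7 CPM). In CD8 C269, library 30 stood out for Sema3e (10.8 CPM), library 27 for Nrp2 (70.8 CPM) and library 29 for Mroh2a (25.2 CPM). In 4T1 C269, library 8 stood out for Mroh2a (3.92 CPM).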

How the results depend on the processing

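The calls of the 6 members in CD8 against CD4 cells held under DESeq2, RLE size factors, no filter and with each library left out. Counts of called genes moved with the method. In 4T1, DESeq2 called 998 genes, and 99 without libraries 9 and 10, where it also moved the median of all genes to -0.11 on the log2 scale; edgeR called 0. In CD4, DESeq2 called 16 and no filter 83, and leaving out single libraries gave 0 to 10. In CD8, DESeq2 called 15, no filter 162 and the fit without libraries 27 and 29 called 0, with 0 to 1 on leaving out single libraries. For the difference between CD8 and CD4 effects, no filter called 8. The cause was not tested.

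Uncalled member values changed sign as follows. In CD4 without library 14, Fermt2 was at 0.11 and Etv1 at 0.17. In CD8, Tead1 was at -0.031 with no filter and -0.74 without libraries 27 and 29, where Nrp2 was at -0.41. With single libraries left out, Fermt2 ran from -0.31 to 0.11 and Etv1 from -0.52 to 0.17 in CD4, and Tead1 from -0.63 to 0.34 and Nrp2 from -0.27 to 0.46 in CD8. For the difference of effects, Tead1 ran from -0.27 to 0.71, Etv1 from -0.92 to 0.14 and Syt13 from -0.42 to 0.46. In 4T1 no member changed sign under any alternative run. The members were chosen for lower counts in C269 libraries of that fraction. That choice largely fixed the sign in advance, so nothing is read from its constancy. The fits without libraries 14, 27 and 29, and DESeq2 without libraries 9 and 10, were chosen after seeing the data. No paired analysis was possible because the library columns carry no replicate letters. In CD8, low counts limit what the members can show.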
